A study of Mus musculus with 12 samples.

Results

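Aminoacyl-tRNA synthetases are the enzymes that attach each amino acid to its transfer RNA. Their transcripts were described in mouse CD8+ T cells by the symbols of 35 genes, 20 for enzymes of the cytosol and 15 for enzymes of the mitochondrion, whose symbols end in 2. The table of 55291 gene symbols held 33 of them, 19 cytosolic and 14 mitochondrial. Mars and Mars2 had no row under their own symbols, and Lars2 was not a member because its reads follow ribosomal RNA. All 33 passed the filter on low counts in every comparison. The study sequenced 12 bulk libraries depleted of ribosomal RNA, 3 in each of 4 groups. The cells were CD8+ T cells of wild-type male mice, taken from spleen and lymph nodes. Naive cells were lysed on day 0 without activation. The activated groups all received plate-bound anti-CD3 and soluble CD28 for 2 days and recombinant mouse interleukin 2 for 1 day, and then spent 24 h in liquid media, in a bovine collagen gel (Nutragen) or in a rat tail collagen gel (RatCol), both at 2 mg/mL, before RNA was taken on day 4. Naive and media cells therefore differ in activation, interleukin 2, culture and time together.

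A synthetase joins an amino acid to the end of its transfer RNA at the cost of ATP, and the charged transfer RNA then brings that amino acid to the ribosome. The nucleus encodes the enzymes of both compartments, so the mitochondrial set is made in the cytosol and imported to serve the small number of proteins that mitochondria translate themselves. Several cytosolic enzymes sit together in the multi-synthetase complex on a scaffold of AIMP proteins, and the others work outside it. When amino acids run short, uncharged transfer RNA activates the kinase GCN2, and the transcription factor ATF4 then drives amino acid supply genes, among them many cytosolic synthetases.

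Promoters are shown for 5 genes, 4 of the cytosolic members that hold an element searched for and Aars2, the member that rose most in rat tail collagen. The promoter of Farsb, which also holds an element, is not shown. RefSeq promoters on GRCm38.p6 were found for 24 of the 33 genes, 12 of each set. Each sequence gives the 250 bases before the transcription start, 5′ to 3′ on the strand of the gene, with matched letters in capitals. The positions are chr8:111033592-111033841 on the plus strand for Aars, chr6:55037751-55038000 on the plus strand for Gars, chr15:11399659-11399908 on the minus strand for Tars, chr13:49681880-49682129 on the plus strand for Iars and chr17:45506582-45506831 on the plus strand for Aars2, of whose starts in RefSeq the first is shown.
Aars: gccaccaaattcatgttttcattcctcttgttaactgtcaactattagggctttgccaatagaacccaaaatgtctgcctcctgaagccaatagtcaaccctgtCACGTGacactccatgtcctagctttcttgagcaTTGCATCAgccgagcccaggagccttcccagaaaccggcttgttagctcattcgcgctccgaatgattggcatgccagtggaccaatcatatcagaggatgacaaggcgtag
Gars: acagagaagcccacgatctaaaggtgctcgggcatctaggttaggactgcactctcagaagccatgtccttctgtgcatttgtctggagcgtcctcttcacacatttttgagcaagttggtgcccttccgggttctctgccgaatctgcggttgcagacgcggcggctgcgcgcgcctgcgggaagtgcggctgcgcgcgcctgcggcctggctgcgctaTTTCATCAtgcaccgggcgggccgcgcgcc
Tars: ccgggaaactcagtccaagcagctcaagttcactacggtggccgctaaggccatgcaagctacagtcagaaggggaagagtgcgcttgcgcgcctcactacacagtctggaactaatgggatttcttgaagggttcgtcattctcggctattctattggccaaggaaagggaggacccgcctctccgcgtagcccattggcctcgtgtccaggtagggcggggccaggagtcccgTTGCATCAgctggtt
Iars: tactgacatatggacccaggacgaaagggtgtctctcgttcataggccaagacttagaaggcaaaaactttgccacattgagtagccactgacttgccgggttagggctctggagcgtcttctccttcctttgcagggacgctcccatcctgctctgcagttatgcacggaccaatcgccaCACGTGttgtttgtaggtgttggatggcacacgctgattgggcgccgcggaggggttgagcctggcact
Aars2: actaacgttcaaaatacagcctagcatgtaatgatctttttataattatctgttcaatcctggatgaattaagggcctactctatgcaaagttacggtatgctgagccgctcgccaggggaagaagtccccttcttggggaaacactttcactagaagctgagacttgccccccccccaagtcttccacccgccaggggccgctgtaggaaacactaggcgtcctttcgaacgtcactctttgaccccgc
Capitals in Gars and Tars mark a match on the opposite strand to TGATGNAA, the letters of the C/EBP-ATF response element, and in Iars they mark the E-box CACGTG. Aars holds both, first CACGTG and then the response element. The response element began 112 bases before the start in Aars, 30 in Gars and 15 in Tars. It was present in these 3 of 12 cytosolic promoters (25%), in 0 of 12 mitochondrial promoters and in 3.91% of all 27025 genes with a promoter, counting both strands. CACGTG was in 3 of 12 cytosolic promoters, those of Aars, Farsb and Iars, in 0 of 12 mitochondrial promoters and in 6.86% of all genes. With the 50 bases after the start added, the response element was also found in Iars and Yars (41.7% of the cytosolic promoters against 4.51% of all genes), and CACGTG in Tars and the mitochondrial Ears2 (33.3% of the cytosolic and 8.33% of the mitochondrial promoters against 8.09% of all genes). The cyclic AMP element TGACGTCA was in no member's promoter and in 1.77% of all genes. A match only says that these letters are present, and binding was not measured. Distances count from the RefSeq start. The printed Aars window lies inside the gene as placed by GENCODE M21 (from 111033144), so its distances depend on the annotation.

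Library totals ran from 28483064 to 53138362 counts. Rows of ribosomal RNA, with Lars2 and repeats that share its reads, took 4.59 to 7.12% of counts in naive and media libraries, 6.72 to 18.9% in rat tail collagen and 7.80 to 18.8% in bovine collagen. The libraries with the highest shares were bovine collagen 2 and rat tail collagen 1 and 3. The 8 markers of CD8 T cells were present in every library, and their summed level was 4525 to 5369 CPM in naive cells, 3477 to 3902 in media, 3505 to 3804 in bovine collagen and 2570 to 2800 in rat tail collagen. Of these markers 5 of 8 fell in rat tail collagen against media, where 28.7% of all genes tested fell. Other cell types were low: the 5 myeloid markers summed to 28.2 to 117 CPM in naive cells and to 1.51 to 5.52 in the activated groups, the 5 B cell markers to at most 5.62 in any library, and the 4 stromal markers to 4.87 to 6.34 in rat tail collagen and at most 1.88 elsewhere. Pdgfra and Dcn were at 0 in media, Dcn and the B cell marker Pax5 at 0 in bovine collagen, Alas2 at 0 in media and Hbb-bs at 0 in bovine collagen. The 4 markers of CD4 T and NK cells summed to 15.8 to 35.6 CPM in naive cells, 14.5 to 29.6 in rat tail collagen and 3.93 to 6.54 in media and bovine collagen. Red cell and platelet markers summed to 2.10 to 13.8 CPM in naive cells and to at most 2.82 elsewhere. The part of these markers and of ribosomal RNA in the results below was not tested, and in bulk RNA fewer cells of a type and less RNA per cell cannot be told apart. The labels do not say that libraries with the same number share a mouse, so p-values measure the spread between these libraries.

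The cytosolic genes were the more abundant set, and their margin was wider in every activated group than in naive cells. Levels are given in CPM, the count of a gene relative to its library's total, scaled with TMM factors. The 19 cytosolic genes summed to 1585, 1636 and 1789 CPM in the naive libraries, 2303, 2085 and 1981 in media, 2256, 2092 and 1934 in bovine collagen and 2038, 2014 and 2444 in rat tail collagen. The 14 mitochondrial genes summed to 411, 417 and 441 CPM in naive cells, 367, 338 and 333 in media, 362, 330.0 and 329 in bovine collagen and 354, 359 and 371 in rat tail collagen. Every activated library was above every naive library for the cytosolic sum and below every naive library for the mitochondrial sum. The ratio of both sums was 3.95 ± 0.105 (SD, n = 3) in naive cells, 6.13 ± 0.167 in media, 6.15 ± 0.241 in bovine collagen and 5.98 ± 0.529 in rat tail collagen. The 3 activated groups overlapped in this ratio, and rat tail collagen 3, at 6.59, was the highest of all 12 libraries. Without Vars and Iars2, the most abundant gene of each set, the ratio was 4.46 in naive cells and 7.45 to 7.61 in the activated groups.

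**Figure D1:**
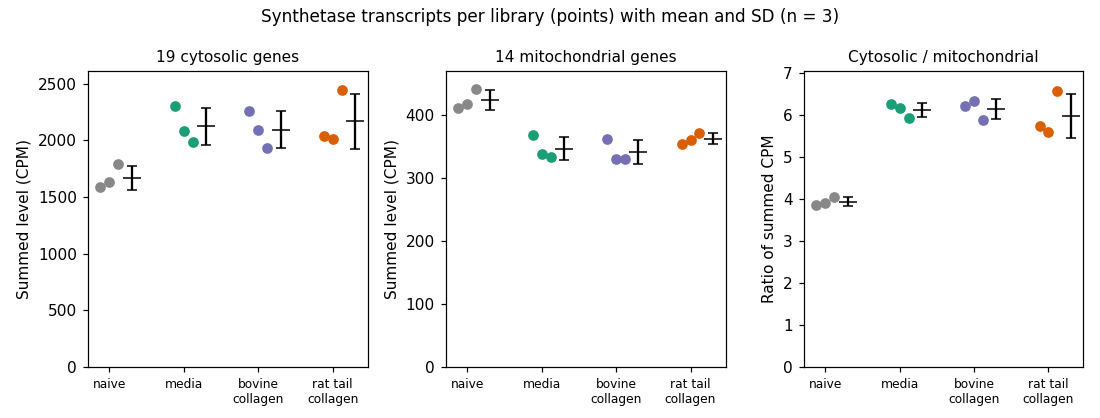
Summed level in CPM of the 19 cytosolic genes (left) and the 14 mitochondrial genes (middle) and the ratio of both sums (right), with a point per library and the mean with SD (n = 3) beside it. The naive libraries have ratios of 3.86 to 4.06, and all 9 activated libraries lie between 5.61 and 6.59.

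Per kilobase of exon, Gars, the glycyl enzyme, which serves both compartments, had the highest level in each group, at 31.4 CPM per kb in naive cells, 66.6 in media, 64.8 in bovine collagen and 62.9 in rat tail collagen. The lowest level was that of Nars2, the mitochondrial asparaginyl enzyme, in naive cells (2.52 CPM per kb) and of Ears2, the mitochondrial glutamyl enzyme, in the activated groups (0.697 to 0.971). The median cytosolic gene stood at 20.3 CPM per kb in naive cells and 18.6 to 24.4 in the activated groups. Its mitochondrial counterpart stood at 5.09 and 4.11 to 4.31. The exon length used was 3119 bases for Gars and 5608 for Vars, which followed Gars in naive cells at 29.3 CPM per kb. The order of genes depends on these lengths, and the lengths of the transcripts made in these cells were not measured.

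Media against naive compared activated with resting cells. Of 19 cytosolic genes, 10 rose and 2 fell at an adjusted p under 0.05 (edgeR, Benjamini-Hochberg over 18610 genes), where 60.8% of all genes were called, 31.6% higher and 29.2% lower. Of 14 mitochondrial genes, 4 rose and 9 fell. The median log2 fold change was 0.24 in the cytosolic set, -0.40 in the mitochondrial set and -0.00 over all genes tested. Groups did not overlap for 11 cytosolic and 13 mitochondrial genes, where this was so for 67.6% of all genes. The medians of both sets kept these signs with RLE factors, library totals and offsets for GC content and length, while 9, 10 and 8 cytosolic genes were called higher and 9 mitochondrial genes lower under each.

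Gars and Aars rose most. Gars (chromosome 6, 55038007 to 55079500) stood at 92.6, 98.2 and 103 CPM in the naive libraries, 232, 202 and 189 in media, 216, 197 and 194 in bovine collagen and 188, 175 and 226 in rat tail collagen. All activated libraries were above all naive ones and the 3 activated groups overlapped. In media it was 2.22-fold higher than in naive cells (log2 1.15 ± 0.09 SE, adjusted p = 5.91e-06). Aars (chromosome 8, 111033144 to 111057664), the alanyl enzyme, stood at 55.9, 59.7 and 64.6 CPM in naive cells, 125, 118 and 112 in media, 119, 112 and 104 in bovine collagen and 166, 167 and 222 in rat tail collagen. Naive libraries were the lowest and rat tail libraries the highest, without overlap with the others. In media it was 2.05-fold higher than in naive cells (log2 1.04 ± 0.08, adjusted p = 4.30e-06). Its exons share 1326 bases with Exosc6 on the same strand, so counts of these 2 genes may not be fully separated.

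Wars and Kars also rose. Wars, the tryptophanyl enzyme, known to respond to interferon gamma, had 53.4, 52.5 and 58.6 CPM in naive cells and 90.3, 81.2 and 96.9 in media, with no overlap (log2 0.77 ± 0.08, adjusted p = 3.97e-05). Kars, the lysyl enzyme of the complex, which also supplies mitochondria, had 101, 101 and 128 CPM in naive cells, 201, 171 and 157 in media, 195, 177 and 166 in bovine collagen and 126, 124 and 126 in rat tail collagen. Its media libraries were above all naive and rat tail libraries (log2 0.74 ± 0.12 against naive, adjusted p = 5.28e-04). Further cytosolic genes that rose were Vars (valine, log2 0.62), Qars (glutamine, 0.59), Hars (histidine, 0.42), Lars (leucine, 0.34), Rars (arginine, 0.24) and Yars (tyrosine, 0.24). Rars lost its call when any 1 of the 3 naive libraries or media 1 or 2 was left out (adjusted p 0.0511 to 0.133), and so did Yars without naive 1 or 2 or media 1 or 2 (0.0721 to 0.166). With GC and length offsets Lars (0.19, adjusted p = 0.0780) was not called either. Farsa and Farsb, the alpha and beta subunits of the phenylalanyl enzyme, were the only cytosolic genes that fell (log2 -0.44 and -0.22). Farsb was not called without naive 2, media 2 or media 3 (adjusted p 0.0510 to 0.111). The genes that did not pass were Sars, Eprs, Tars, Iars, Nars, Dars and Cars, with log2 values from -0.04 to 0.23. Of the 7 genes of the complex, 4 rose (Kars, Qars, Lars and Rars) and none fell, and of the 12 outside it 6 rose and 2 fell. By structural class, 6 of 9 class I enzymes rose and none fell, and 4 of 10 class II enzymes rose and 2 fell. Over all genes tested, 31.6% rose and 29.2% fell, and differences between these subgroups were not tested.

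Ears2 showed the largest fall of any member. Ears2 (chromosome 7, 122037213 to 122067263) stood at 17.9, 20.3 and 22.3 CPM in naive cells, 4.58, 4.01 and 3.23 in media, 4.60, 3.73 and 2.44 in bovine collagen and 4.46, 5.38 and 5.17 in rat tail collagen. Every naive library was far above every activated one. In media it was 4.88-fold lower than in naive cells (log2 -2.29 ± 0.15, adjusted p = 1.83e-06). Nars2 stood at 18.5, 16.8 and 17.4 CPM in naive cells, 8.73, 8.17 and 6.61 in media, 9.60, 7.22 and 7.49 in bovine collagen and 10.2, 10.4 and 9.57 in rat tail collagen. No activated library reached the naive range, and in media the gene was 2.15-fold lower (log2 -1.10 ± 0.12, adjusted p = 5.74e-05). Strand is not given in the sources used here, and Nars2 shares 284 exon bases with C230038L03Rik and Ears2 shares 89 with Ubfd1, both on the opposite strand.

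Aars2, the mitochondrial alanyl enzyme, stood at 20.3, 19.8 and 23.7 CPM in naive cells, 14.1, 12.7 and 13.5 in media, 14.4, 12 and 12.1 in bovine collagen and 30.9, 33 and 36.0 in rat tail collagen. The 3 ranges of naive, media with bovine collagen, and rat tail collagen did not overlap. In media it was 1.51-fold lower than in naive cells (log2 -0.60 ± 0.10, adjusted p = 5.30e-04). Vars2, the mitochondrial valyl enzyme, stood at 44.3, 44.5 and 53.4 CPM in naive cells, 32.1, 29.9 and 30.4 in media, 31.9, 30.3 and 29.2 in bovine collagen and 39.2, 39.1 and 45.1 in rat tail collagen. Its naive libraries were above media without overlap (log2 -0.56 ± 0.09, adjusted p = 4.12e-04 for media against naive). The others that fell were Hars2 (log2 -0.55), Tars2 (-0.43), Yars2 (-0.42), Wars2 (-0.38) and Cars2 (-0.32). Yars2 was not called without media 2 (adjusted p = 0.0511). Fars2 (0.39), Pars2 (0.34), Iars2 (0.28) and Sars2 (0.24) rose, and Rars2 stood at -0.02. Iars2 and Pars2 lost their calls without naive 1 or naive 2 (adjusted p 0.0565 to 0.0896) and Sars2 without naive 1, naive 2 or media 2 (0.112 to 0.173). Iars2 shares 2034 exon bases with Rab3gap2 on the opposite strand.

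Enzymes for the same amino acid in both compartments could be set side by side in 15 pairings. In 5 of them, for alanine, histidine, valine, tryptophan and tyrosine, the cytosolic gene rose and the mitochondrial gene fell from naive to media cells. In 2, Farsa and Farsb with Fars2, the cytosolic gene fell and the mitochondrial gene rose. In the other 8, at least 1 gene was not called, and no pairing had both genes called in the same direction.

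**Figure D2:**
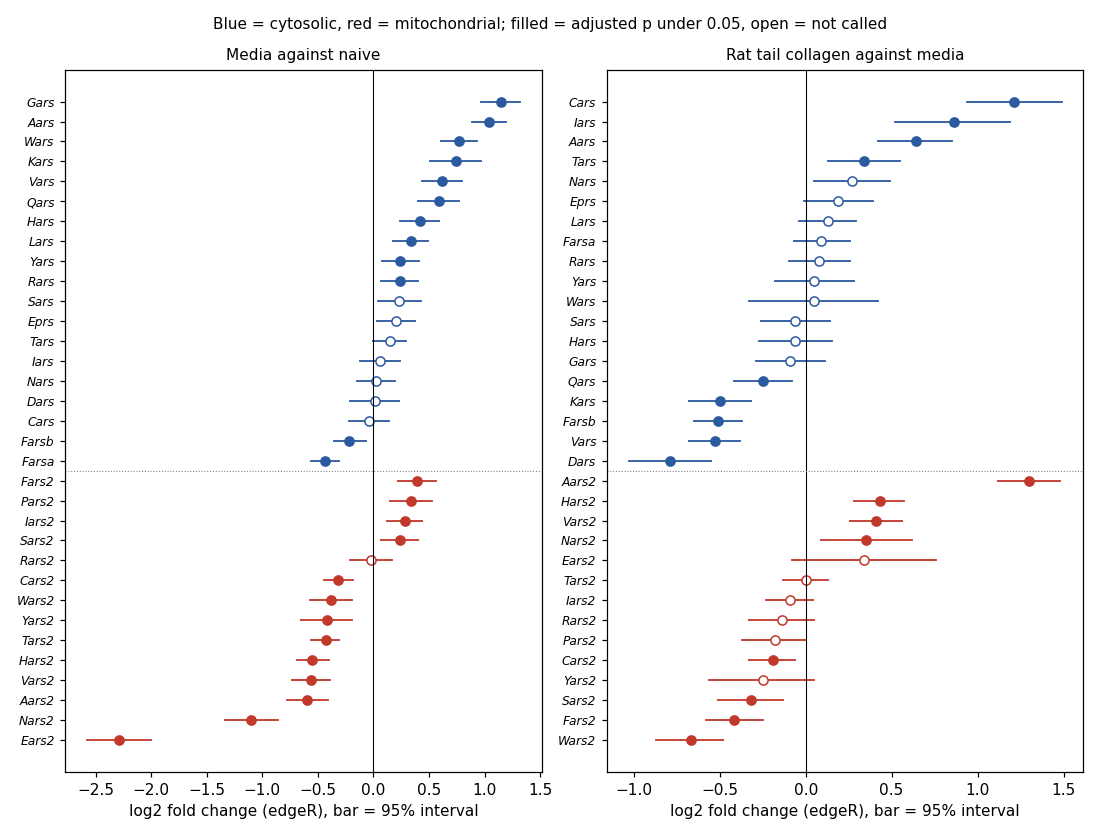
Log2 fold change of each of the 33 genes (y axis) in media against naive (left) and rat tail collagen against media (right), with bars for the 95% interval, blue for cytosolic and red for mitochondrial genes, and filled points for an adjusted p under 0.05. On the left 10 cytosolic genes rose and 9 mitochondrial genes fell, and on the right both sets have genes on each side of 0.

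Rat tail collagen against media compared activated cells after a day in that gel with cells kept in liquid. The synthetases did not move as a block. Of 19 cytosolic genes 4 rose and 5 fell, and of 14 mitochondrial genes 4 rose and 4 fell, where 58.4% of all 19392 genes were called, 29.7% higher and 28.7% lower. The medians were 0.05, -0.12 and -0.01 for the cytosolic set, the mitochondrial set and all genes. The share of members called, 17 of 33, was close to that of all genes. Groups did not overlap for 10 cytosolic and 9 mitochondrial genes, where this was so for 64.8% of all genes.

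Cars, Iars and Aars rose most in the cytosolic set. Cars (chromosome 7, 143557230 to 143600090), the cysteinyl enzyme, stood at 28.1, 27.9 and 33.3 CPM in naive cells, 29.1, 28.7 and 25.5 in media, 26.9, 24.8 and 23.6 in bovine collagen and 56.4, 54.7 and 83.6 in rat tail collagen. All 3 rat tail libraries were above the other 9. Its level was 2.32-fold that in media (log2 1.21 ± 0.14, adjusted p = 2.24e-05), and 1.0 on the log2 scale without rat tail collagen 3. Iars (chromosome 13, 49682100 to 49734267), the isoleucyl enzyme of the complex, stood at 81.8, 82.5 and 90.0 CPM in naive cells, 91.8, 87.8 and 74.2 in media, 89.8, 88.4 and 69.6 in bovine collagen and 132, 126 and 204 in rat tail collagen. Again the rat tail libraries did not overlap the others, and library 3 was far above libraries 1 and 2. Against media the log2 value was 0.86 ± 0.17 (adjusted p = 0.00117) and 0.61 without rat tail collagen 3. Without all 3 libraries of high ribosomal RNA, which leaves 1 rat tail library, it was 0.57.

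Aars, with the values above, was 1.56-fold higher than in media (log2 0.64 ± 0.11, adjusted p = 3.93e-04) and 0.49 on the log2 scale without rat tail collagen 3. Tars, the threonyl enzyme, also rose (log2 0.34 ± 0.11, adjusted p = 0.0175). Its call ended without rat tail collagen 3 (0.22, adjusted p = 0.0714), media 2 (0.32, 0.0585) or media 3 (0.31, 0.0503). Aars, Tars and Gars are the genes whose printed promoters hold the C/EBP-ATF element, and Gars did not pass the test here (log2 -0.09, adjusted p = 0.473). The promoter of Iars held CACGTG in the 250 bases, as did those of Aars, which rose, and Farsb, which fell (log2 -0.51). No promoter was found for Cars. A link between these letters and the changes was not tested.

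Rat tail collagen 3 had the highest level of the 3 rat tail libraries in 16 of 19 cytosolic genes, 5 of 14 mitochondrial genes and 38.2% of all genes tested. It also held the highest share of ribosomal RNA rows, 18.9%, against 15.3% and 6.72% in libraries 1 and 2. Without it the median of the cytosolic set was -0.09, with 3 genes called higher and 4 lower. Of all 19915 genes tested in that fit, 5597 were higher and 5094 lower, with a median of -0.00.

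Dars, Vars, Farsb, Kars and Qars fell in rat tail collagen. Dars, the aspartyl enzyme of the complex, stood at 88.4, 92.8 and 85.6 CPM in naive cells, 100, 84.9 and 72.0 in media, 86.2, 84.7 and 72.3 in bovine collagen and 54.3, 51.9 and 43.3 in rat tail collagen. The rat tail libraries were the lowest 3 of 12, 1.73-fold below media (log2 -0.79 ± 0.12, adjusted p = 2.13e-04). Vars fell by 0.53 on the log2 scale (adjusted p = 9.92e-05), Farsb by 0.51 (1.06e-04), Kars by 0.50 (6.42e-04) and Qars by 0.25 (0.0286). Without the 3 libraries of high ribosomal RNA, which leaves 1 rat tail library, the log2 value of Kars was about the same (-0.51). Qars was not called without media 1, rat tail collagen 1 or rat tail collagen 3 (adjusted p 0.0623 to 0.0930). The other subunit of the phenylalanyl enzyme, Farsa, had a log2 value of 0.09 (adjusted p = 0.369). Of the complex, Iars rose, Dars, Kars and Qars fell, and Eprs (glutamate and proline, 0.19), Lars (0.13) and Rars (0.08) did not pass. Nars had a log2 value of 0.27 with an adjusted p of 0.0553 and was called without media 1 (0.0392) or rat tail collagen 2 (0.0251), and Yars, Wars, Sars and Hars lay between -0.06 and 0.05.

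Aars2 (chromosome 17, 45506841 to 45520843) rose more than any other member, 2.46-fold over media (log2 1.30 ± 0.09, adjusted p = 5.05e-07), with the values in every library given above. Without rat tail collagen 3 its log2 value was 1.24. Without the 3 libraries of high ribosomal RNA, which leaves 1 rat tail library, it was 1.29. Alanine was the amino acid for which the genes of both compartments rose, and Farsb and Fars2, for phenylalanine, both fell. Hars2, the mitochondrial histidyl enzyme, stood at 36.4, 36.3 and 35.2 CPM in naive cells, 24.9, 23.6 and 22.3 in media, 24.7, 22.7 and 23.7 in bovine collagen and 33.4, 30.4 and 31.9 in rat tail collagen. Rat tail libraries lay between naive and media libraries without overlap (log2 0.43 ± 0.07 against media, adjusted p = 3.80e-04). Hars2 and Hars, whose genes lie head to head, share 195 exon bases on opposite strands. Vars2 rose as well (log2 0.41, adjusted p = 7.01e-04), and so did Nars2 (0.35, 0.0419). Vars2 stood at 0.34 without the libraries of high ribosomal RNA, with 1 rat tail library left. Nars2 was not called without media 2 or 3 or any 1 of the 3 rat tail libraries (adjusted p 0.0519 to 0.161). Vars2 shares 465 exon bases with Gm20483 on the opposite strand.

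Wars2, the mitochondrial tryptophanyl enzyme, fell most in its set, from 12, 10.3 and 11.1 CPM in media to 7.57, 6.73 and 6.77 in rat tail collagen. Naive cells had 14.8, 15.5 and 15.2 CPM and bovine collagen 10.3, 10.5 and 9.68, so the rat tail libraries were the lowest of all (log2 -0.67 ± 0.10 against media, adjusted p = 1.42e-04). Fars2 stood at 16.4, 16.6 and 17.6 CPM in naive cells, 23.2, 20.2 and 20.2 in media, 20.8, 18.6 and 18.3 in bovine collagen and 16.0, 16.4 and 15.6 in rat tail collagen. It was lower in every rat tail library than in media (log2 -0.42 ± 0.08, adjusted p = 0.00116). The log2 value was -0.38 without the libraries of high ribosomal RNA, with 1 rat tail library left. Exons of Fars2 share 501 bases with Nrn1 on the opposite strand. Sars2 (log2 -0.32, adjusted p = 0.0147) and Cars2 (-0.19, 0.0299) fell too. Sars2 lost its call without rat tail collagen 2 (0.0739), and Cars2 without media 1 or 2 or rat tail collagen 1 or 3 (0.0509 to 0.0997). Cars2 shares 422 exon bases with Naxd on the opposite strand. Ears2, Tars2, Iars2, Rars2, Pars2 and Yars2 did not pass, with log2 values from -0.25 to 0.34.

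**Figure D3:**
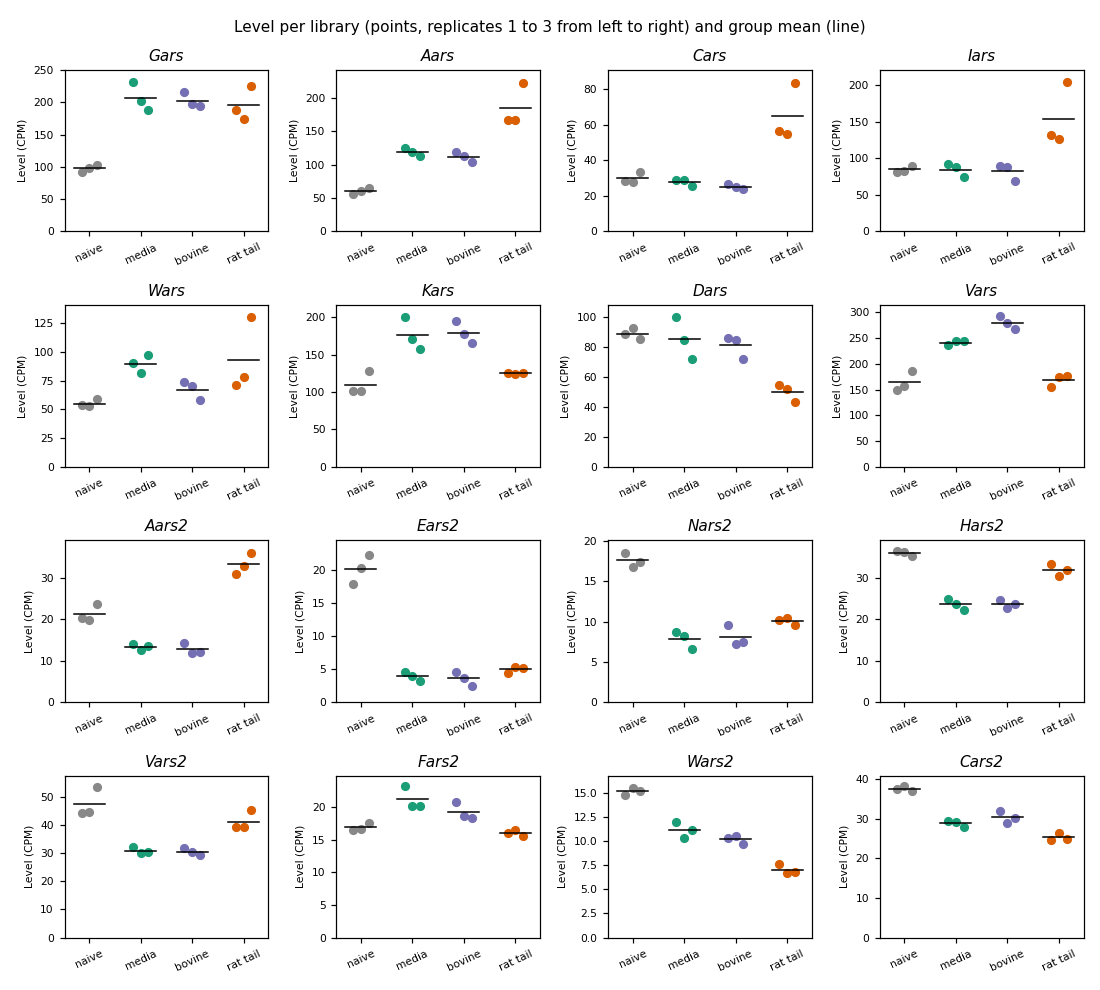
Level in CPM of 16 of the 33 genes, 1 panel each, with a point per library by group and a line at the group mean. Cars, Iars, Aars and Aars2 lie highest in rat tail collagen, Dars and Wars2 lowest there, and Ears2 and Nars2 highest in naive cells.

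Offsets for the trend of each library with GC content and transcript length moved the median of all genes in this comparison to -0.20, and the calls over all genes from 5759 higher and 5560 lower to 4119 higher and 7743 lower. How much of this shift came from the trends and how much from the level of whole libraries was not tested. Relative to the median with offsets, Cars stood at 0.99, Iars at 0.81, Aars2 at 0.75 and Hars2 at 0.39, and all 4 were still called higher. Aars went from 0.64 to -0.02 (adjusted p = 0.876), which is 0.18 above the median. Vars2 turned from 0.41 to -0.29 (adjusted p = 0.00275), which is -0.09 relative to the median. Tars (0.12, adjusted p = 0.368) and Nars2 (0.18, 0.304) were no longer called. The exons of Vars (60.9% GC), Sars2 (60.1%), Aars2 (60.0%), Vars2 (58.6%) and Aars (56.4%) hold more GC than the median gene tested (49.3%). With the offsets 2 cytosolic genes were called higher and 9 lower, and 2 mitochondrial genes higher and 10 lower.

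**Figure D4:**
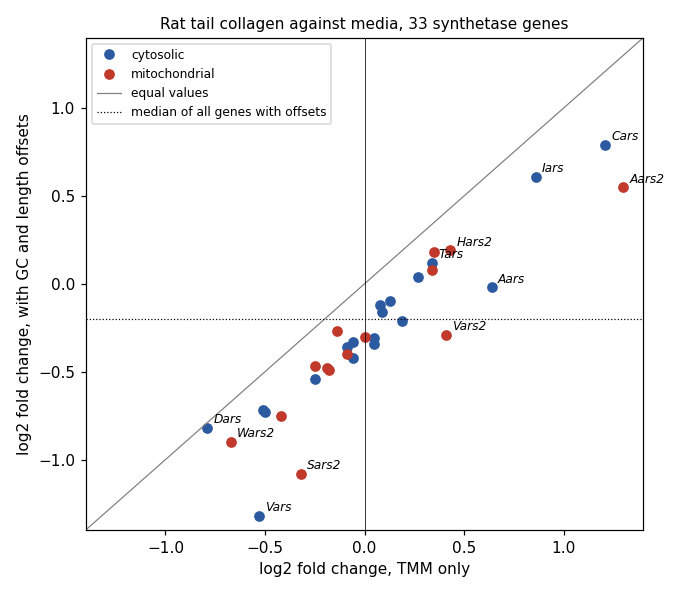
Log2 fold change of the 33 genes in rat tail collagen against media with TMM factors alone (x axis) and with GC and length offsets (y axis), blue for cytosolic and red for mitochondrial genes. The grey line marks equal values and the dotted line the median of all genes with offsets, -0.20, and Aars and Vars2, both called higher without offsets, are among the genes above 0 on the x axis and below 0 on the y axis.

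Bovine collagen against media gave no member a call with edgeR, where 0.0206% of all genes (4 of 19392) were called. Libraries were not paired in this fit, and with the replicate number as a block no member was called either. At an unadjusted p under 0.05 edgeR gave 1 member, Vars, against 4.18% of all genes, and DESeq2, which called no member either, gave 2, Vars and Wars. The 33 log2 values ran from -0.42 to 0.21, with a median of -0.06 in the cytosolic and -0.04 in the mitochondrial set. Wars was at the lower end, with 73.6, 70.0 and 57.8 CPM in bovine collagen, all below the media libraries (log2 -0.42, 95% interval -0.79 to -0.04, adjusted p = 1.0). Vars was at the upper end, with 236, 244 and 244 CPM in media and 292, 279 and 268 in bovine collagen, also without overlap (log2 0.21, interval 0.06 to 0.36, adjusted p = 1.0). Groups did not overlap for 3 members, these and Tars2, where this was so for 8.78% of all genes. For Aars2 the interval of the log2 value was -0.25 to 0.12, for Cars -0.43 to 0.14 and for Iars -0.37 to 0.30.

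Rat tail against bovine collagen set both gels against each other at 1 concentration. Of 19 cytosolic genes 5 were higher in rat tail collagen and 5 lower, and of 14 mitochondrial genes 3 were higher and 5 lower, where 54.7% of all genes were called, 28.4% higher and 26.4% lower. Groups did not overlap for 10 cytosolic and 8 mitochondrial genes and for 63.8% of all genes. Cars (log2 1.36 ± 0.14, adjusted p = 1.20e-05) and Aars2 (1.36 ± 0.09, 4.65e-07) differed most, followed by Iars (0.89), Vars (-0.74), Aars (0.72) and Dars (-0.71). With offsets Cars stood at 0.98 and was still called, Aars at 0.13 was not, and the median of all genes was -0.19. Nars (0.32, adjusted p = 0.0280) was called higher here and lost its call without bovine collagen 2 or 3 or rat tail collagen 3 (0.0870 to 0.114). Pars2 (-0.25, 0.0403) was called lower and lost its call without bovine collagen 1 or 3 or rat tail collagen 1 or 3 (0.0598 to 0.150). Fars2 was not called without bovine collagen 1 (0.0598), nor Sars2 without bovine collagen 1 or rat tail collagen 1 or 2 (0.0890 to 0.173). Wars (0.46, 0.0626) was called without rat tail collagen 1 (0.62, 0.0173) or 2 (0.57, 0.0418). Leaving out the 3 libraries of high ribosomal RNA leaves 1 rat tail library, so only log2 values are given. Dars then stood at -0.61 and Kars at -0.54, near their values with all libraries (-0.71 and -0.53). Nars moved from 0.32 to 0.12 and Sars2 from -0.26 to -0.46. This comparison and the other 2 of day 4 share libraries and are not independent.

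Rat tail collagen against naive, which shares libraries with both comparisons above, had 11 cytosolic genes higher and 3 lower, and 1 mitochondrial gene higher and 7 lower, where 71.9% of all genes were called, 36.5% higher and 35.4% lower. Groups did not overlap for 14 cytosolic and 11 mitochondrial genes and for 76.2% of all genes. Aars was 3.09-fold higher (log2 1.63 ± 0.12, adjusted p = 1.93e-06), and Ears2 was 4.00-fold lower (log2 -2.00 ± 0.12, adjusted p = 2.35e-07). Aars2 was the mitochondrial gene that was higher (log2 0.65, adjusted p = 1.29e-04), and with GC and length offsets it stood at -0.17, where the median of all genes was -0.25. Hars2 (-0.17) was called lower and lost its call without naive 1 or 2 or any 1 of the 3 rat tail libraries (0.0594 to 0.219). With these offsets 4 cytosolic genes were higher (Aars, Cars, Gars and Iars) and 4 lower, and 0 mitochondrial genes higher and 12 lower. Over all 18897 genes tested with offsets, 5537 were higher and 8805 lower. Eprs, Hars, Lars, Qars, Rars, Tars and Wars lost their calls, with log2 values from -0.05 to 0.38, all above the median of -0.25. Wars was higher (log2 0.77, adjusted p = 0.0232), and lost its call without any 1 of the 3 naive libraries (0.0632 to 0.0873). Its rat tail libraries had 71.3, 78.3 and 130.0 CPM, library 3 far above the others, and against media its log2 value was 0.05 with all libraries and -0.26 without library 3 (adjusted p = 0.0779).

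Genes that work with the synthetases were described from lists. Of the 3 scaffold proteins of the complex, Aimp1 fell in rat tail collagen against media (log2 -0.55, adjusted p = 5.18e-04), from 95.8, 76.9 and 73.1 CPM to 57.0, 58.0 and 53.3, and Eef1e1 (-0.42, 0.0668) and Aimp2 (-0.24, 0.360) did not pass. Without the 3 libraries of high ribosomal RNA, which leaves 1 rat tail library, the median of the 3 genes was -0.50. With GC and length offsets all 3 were called lower. From naive to media cells Aimp1 rose (0.94) and Eef1e1 (-0.48) and Aimp2 (-0.44) fell. Of 10 other genes of tRNA charging, 1 rose in rat tail collagen, Aarsd1, an editing protein for mischarged alanine tRNA (log2 0.92), and 3 fell: Tarsl2, a second threonyl enzyme (-0.68), Prorsd1 (-0.32) and Trnt1, which adds the CCA end of tRNA (-0.27). With GC and length offsets 0 of these 10 were called higher and 5 lower, so Aarsd1 was not called. Eif2ak4, which encodes GCN2, had 30.7, 32.0 and 26.2 CPM in media and 42.1, 39.1 and 38.8 in rat tail collagen, without overlap (log2 0.42, adjusted p = 0.00607). With GC and length offsets neither of the 2 sensor genes tested, Eif2ak4 and Impact, was called.

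ATF4-linked genes, listed without the synthetases, moved differently in each comparison. From naive to media cells 12 of 21 rose and 5 fell, with a median of 0.69. Of all genes, 31.6% rose and 29.2% fell. Asns, the asparagine synthetase, rose by 5.57 on the log2 scale, from 0.735, 0.472 and 0.410 CPM to 28.1, 24.7 and 20.7. The transcript of Atf4 itself fell by 0.95. In rat tail collagen against media 10 of 22 rose and none fell, with a median of 0.33 against -0.01 over all genes. Chac1, which degrades glutathione, stood at 0.669, 0.831 and 1.01 CPM in media and 3.71, 3.57 and 6.63 in rat tail collagen (log2 2.46, adjusted p = 2.52e-05), and Pycr1, of proline synthesis, at 2.06, 1.38 and 1.39 against 4.31, 4.34 and 5.66 (log2 1.55, adjusted p = 6.81e-05). Asns (0.03), Psat1 (0.03), Atf4 (0.19) and Trib3 (-0.47) did not pass. Rat tail collagen 3 was the highest of the 3 rat tail libraries in 19 of 22 of these genes. Without it 5 of 24 tested rose (Atf5, Chac1, Nupr1, Pycr1 and Sesn2) and Trib3 fell, where 5597 of all 19915 genes rose and 5094 fell. With GC and length offsets 4 of 21 were called higher (Atf5, Chac1, Nupr1 and Pycr1) and 5 lower (Atf4, Ddit4, Phgdh, Slc7a1 and Trib3). Over all genes these offsets gave 4119 higher and 7743 lower, with a median of -0.20. Atf4 (-0.33), Ddit4 (-0.37) and Slc7a1 (-0.39) lay near that median, and Phgdh (-0.59) and Trib3 (-1.13) further below it.

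Genes of translation and of mitochondrial gene expression were described in the same way. In rat tail collagen against media, 9 of 18 genes of a list of cytosolic translation factors and the kinase Eef2k fell and 1 rose (median -0.24), where 28.7% of all genes fell and 29.7% rose. Among those that fell were the elongation factor genes Eef1d (-0.63) and Eef1a1 (-0.53) and Eef2k (-0.92), which encodes an inhibitor of elongation, and 60 of 82 cytosolic ribosomal protein genes fell and 1 rose (median -0.42). Without the 3 libraries of high ribosomal RNA, which leaves 1 rat tail library, the medians of these 2 lists were -0.28 and -0.40. Of 16 genes of mitochondrial translation, transcription and tRNA modification 5 rose and 4 fell, shares near those of all genes. The elongation factor genes Tsfm (0.64) and Tufm (0.59) and the tRNA modification gene Trmu (0.67) were among those that rose and Tfam (-0.70), of mitochondrial DNA packaging and transcription, among those that fell, and with GC and length offsets 1 was called higher and 7 lower. From naive to media cells 42 of 77 mitochondrial ribosomal protein genes rose and 7 fell (median 0.31), while the mitochondrial synthetases had a median of -0.40. Of 81 cytosolic ribosomal protein genes 4 rose and 49 fell (median -0.40), while the cytosolic synthetases had a median of 0.24. In each compartment the synthetase set and the ribosomal protein set had medians of opposite sign in media against naive, with RLE factors, library totals and GC and length offsets too, a difference that was not tested. Of 10 interferon-induced genes, listed because Wars is one of their kind, 5 fell in rat tail collagen against media and none rose (median -0.65), while Wars stood at 0.05. In bovine collagen against media none of the 10 was called (edgeR), with a median of -0.45 and groups that did not overlap for 6 of 10, against 8.78% of all genes, and Wars stood at -0.42, not called.

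**Figure D5:**
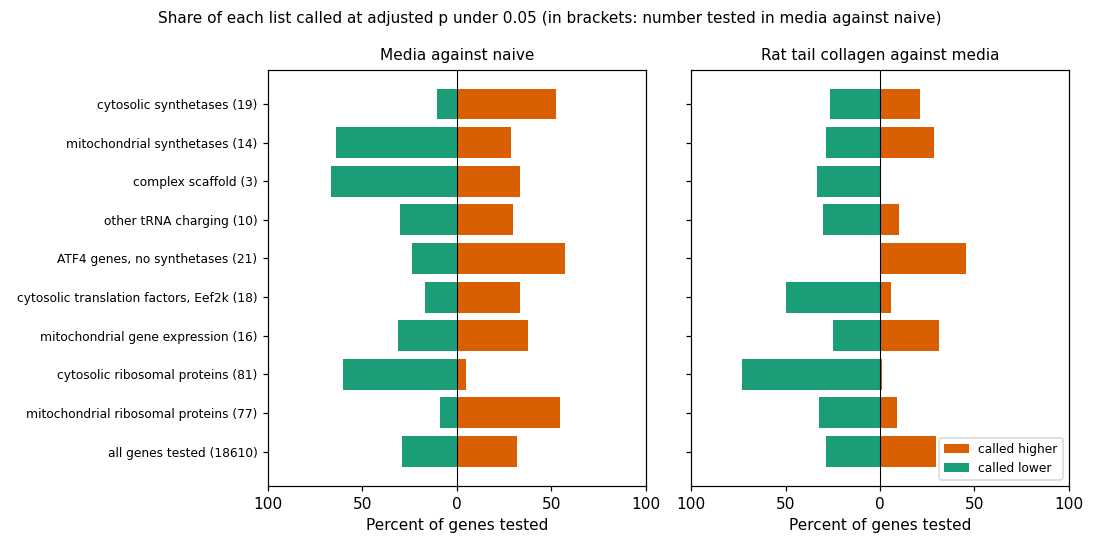
Percent of each list called higher (right of 0) and lower (left of 0) in media against naive and in rat tail collagen against media, beside all genes tested. Cytosolic synthetases have 10 of 19 higher and mitochondrial ribosomal proteins 42 of 77 higher in media, where 9 of 14 mitochondrial synthetases are lower.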

How the data were processed

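RNA of 12 libraries was sequenced after ribosomal RNA depletion, from 150 ng of RNA per library per the labels' protocols. A deposited table gave whole-number counts of reads per gene symbol, which were used unchanged. Alignment with HISAT2 and counting with featureCounts, with FastQC, MultiQC, Picard and SAMtools beside them, and the builds mm10 and GRCm38 appear in the submitters' processing notes. Versions, strand setting and annotation were not given in the sources used here. Groups came from the sample titles. Genes were kept with filterByExpr, scaled with TMM factors and tested in edgeR 4.0.16 under R 4.3.3 by its robust quasi-likelihood F test, with Benjamini-Hochberg adjustment over all genes tested and calls at an adjusted p under 0.05. The 9 day 4 libraries shared 1 fit, and comparisons with naive cells used their 6 libraries. No set test was run.

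Alternatives were RLE factors, library totals, DESeq2 1.42.0, other filters, other sample sets, the replicate number as a block, removal of ribosomal RNA genes, GC and length offsets (known for 97.1% of genes tested and all 33 members), omission of the 3 libraries with the highest share of ribosomal RNA, and each library left out. Removal of all ribosomal RNA and Lars2 repeat rows, the offsets with the block, and the list counts under other settings were chosen after seeing the data. No main fit paired libraries. The fits with a block, run in every comparison, treated same-numbered libraries as pairs. Same-numbered libraries of bovine collagen and media deviated together (r = 0.78, 0.24 and 0.79).

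The members and lists were chosen with earlier results of these data known. Values in every library are given for Wars, for the 4 members of each set with the largest called change between rat tail collagen and media and between media and naive cells, for any member called between bovine collagen and media (none was), and for further genes picked after their values were seen (Vars in bovine collagen and listed genes outside the synthetases). GENCODE M21, a GRCm38 annotation, gave gene positions, lengths, GC content and overlaps, and promoters from RefSeq on GRCm38.p6. Gcn1l1, a partner of GCN2, was not used here. The procedure was tested on simulated counts: small changes were recovered less often than large ones, and the share of false calls was above the nominal level in each comparison, most in both comparisons with naive cells.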

Additional observations from a re-analysis of the deposited data

Results flagged for a closer look

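The effect of rat tail collagen and that of bovine collagen, each against the same media libraries, differed by a direct test of one gel against the other in 18 of 33 genes, where 54.7% of all genes tested differed (edgeR, adjusted p under 0.05). The log2 difference between both effects, rat tail minus bovine, was above 0 in 5 cytosolic genes: Cars 1.36, Iars 0.89, Aars 0.72, Tars 0.42 and Nars 0.32. It was below 0 in 5 cytosolic genes: Vars -0.74, Dars -0.71, Kars -0.53, Farsb -0.41 and Qars -0.33. Among the mitochondrial genes it was above 0 in 3, with Aars2 1.36, Hars2 0.42 and Vars2 0.42, and below 0 in 5, with Wars2 -0.54, Cars2 -0.27, Fars2 -0.27, Sars2 -0.26 and Pars2 -0.25. For Vars the value against media was 0.21 in bovine collagen, which was not called, and -0.53 in rat tail collagen.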

How the results depend on the processing

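Of the 17 members called in rat tail collagen against media, 8 were called in the same direction under all 18 alternatives. The same held for 6 of 18 members in rat tail against bovine collagen, also under 18 alternatives. It held for 17 of 25 in media against naive under 16 alternatives, and for 13 of 22 in rat tail collagen against naive under 17. No member was called in bovine collagen against media under any of 19 alternatives. GC and length offsets turned Aars (-0.02) and Vars2 (-0.29) against media, Vars2 (-0.21) against bovine collagen, and Rars (-0.05) and Aars2 (-0.17) against naive. The medians of all genes with offsets were -0.20, -0.19 and -0.25 in these comparisons. Over all genes, 4119 were then higher and 7743 lower against media, and 3831 and 7495 against bovine collagen. In media against naive 5156 were higher and 6324 lower, and in rat tail collagen against naive 5537 and 8805. With these offsets the counts higher and lower were 2 and 9 (cytosolic) and 2 and 10 (mitochondrial) against media, 2 cytosolic genes higher and 8 mitochondrial lower against bovine collagen, 2 mitochondrial higher in media against naive, and 4 cytosolic higher, 0 mitochondrial higher and 12 mitochondrial lower in rat tail collagen against naive. Without the 3 libraries of high ribosomal RNA, which leaves 1 rat tail library assumed to vary like the others, 3 cytosolic genes were lower, 2 mitochondrial higher and 2 lower against media. Against bovine collagen they were 3 and 2 (cytosolic) and 1 and 1 (mitochondrial). Library totals gave 2 mitochondrial genes lower against media, and 11 cytosolic higher, 5 mitochondrial higher and 1 lower against bovine collagen. Over all genes, library totals gave 5795 higher and 4437 lower against media, and 6329 and 3221 (median 0.15) against bovine collagen. There, RLE factors, DESeq2 and a fit of only the 6 libraries each gave 3 mitochondrial genes lower, and a filter of 1 CPM in 3 libraries gave 5 higher and 3 lower. Media against naive had 1 cytosolic gene lower with no filter beyond 1 count. Rat tail collagen against naive had 2 mitochondrial genes higher with the 1 CPM filter and with all ribosomal RNA and Lars2 repeat rows removed. With the replicate block there were 5 mitochondrial genes higher against bovine collagen, 1 cytosolic lower in media against naive and 2 mitochondrial higher in rat tail collagen against naive. Same-numbered libraries were not shown to be pairs there (r from -0.26 to 0.27). For bovine collagen against media, the block treated same-numbered libraries as pairs and called 7 genes in place of the 4 of the unpaired main fit, none a member. Over all genes this comparison gave 22 calls with DESeq2, 39 with no filter, 9 with library totals, 12 with offsets and block, 2 with only its 6 libraries, 1 without the libraries of high ribosomal RNA and 2 to 5 with 1 library left out. Leaving out 1 library gave 3 to 5 mitochondrial higher and 2 to 5 lower against bovine collagen, 1 to 2 cytosolic lower and 1 to 4 mitochondrial higher in media against naive, and 1 to 2 mitochondrial higher in rat tail collagen against naive. Without the most abundant gene of each set the ratio of sums was 4.46, 7.61, 7.58 and 7.45 in naive, media, bovine and rat tail collagen. The causes were not tested beyond the construction of each alternative. With 3 libraries per group, changes as small as those of Rars and Yars in media against naive were called or not depending on 1 library.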

Other observations

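The table holds 2 rows with date-like names, 01-mars and 02-mars, the form that a spreadsheet set to French month names gives to the symbols Mars1 and Mars2. Whether they are the methionyl enzymes was not tested, and they were not counted among the members. The row 01-mars stood at 54.1, 57.8 and 63.9 CPM in naive cells, 73.3, 57.7 and 54.5 in media, 73.7, 60.1 and 52.2 in bovine collagen and 108, 104 and 137 in rat tail collagen. Its rat tail libraries were above its media libraries without overlap (edgeR log2 0.90 ± 0.15, adjusted p = 2.90e-04) and not called in media against naive (0.14, adjusted p = 0.307). The row 02-mars stood at 37.5, 39.3 and 38.2 CPM in naive cells, 21.6, 20.5 and 19.6 in media, 21.7, 20.3 and 19.1 in bovine collagen and 18.6, 18.5 and 17.5 in rat tail collagen. It was lower in media than in naive cells without overlap (log2 -0.84 ± 0.07, adjusted p = 1.30e-05) and did not pass in rat tail collagen against media (-0.19, adjusted p = 0.0579).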
